A study of Homo sapiens with 3 samples.

Results

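The genes described here are 41 chemokine, cytokine, cytokine receptor, NF-kB and prostaglandin genes, picked by symbol from a list (IL8 and CXCL8 are 1 gene, named CXCL8 in the data) out of 18856 genes listed in at least 1 of 3 libraries. Of the 41 genes, 39 were listed in at least 1 library, 34 in LIEA of HBE, 38 in Smart-seq2 of HBE and 33 in LIEA of A549, while CXCL6 and TLR2 were listed in none. LIEA (low-input, equal-amplification) RNA-seq is the study's method of fragmenting the mRNA, ligating adapters and sequencing on an Ion Torrent instrument, and Smart-seq2 reverse transcribes from the polyA tail, amplifies the cDNA and was read on an Illumina instrument. HBE is a human bronchial epithelial cell line and A549 a human lung adenocarcinoma cell line, and neither carried a treatment in the labels. Each library was made from 10 pg of polyA+ mRNA, and each condition had 1 library, so there was no replicate error and no difference below was tested. The low inputs were diluted from bulk mRNA, the study describes the starting materials of both methods as the same, and the labels say that the methods were run in parallel, but the sources used here do not say whether 1 preparation gave both HBE libraries. Library method, sequencing platform and preparation differ together between the HBE libraries and cannot be told apart.

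NF-kB is a family of dimeric transcription factors that inhibitory IkB proteins hold in the cytoplasm. Signals from TNF, IL-1 and Toll-like receptors activate a kinase complex that removes these inhibitors, and nuclear NF-kB then induces chemokines, cytokines, adhesion molecules and its own inhibitors. Airway epithelial cells use this system to call in leukocytes, and many of the induced mRNAs are short lived.

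The deposited values are log2 rpkM (reads per kilobase of transcript, scaled to 1000000 mapped reads). The totals recovered from them were 4605855 mapped reads in LIEA of HBE, 9845150 in Smart-seq2 of HBE and 4154060 in LIEA of A549. A limit of 3 reads stands at 0.651, 0.305 and 0.722 reads in 1000000 in these libraries. Intervals are 95% exact intervals of the ratio of reads and cover counting error alone, as PCR copies are not independent molecules. As fewer expressing cells and less RNA per cell cannot be told apart in such samples, all values are levels of the whole sample. The labelled cell types were checked against markers. All 6 epithelial markers were listed in every library, with summed levels between 2387 and 10561 rpkM. KRT8 had 5012, 22737 and 35337 reads and EPCAM 226, 2181 and 26 reads in LIEA of HBE, Smart-seq2 of HBE and LIEA of A549. The 5 basal airway markers (KRT5, KRT14, TP63, KRT17 and KRT6A) summed to 1706 rpkM in LIEA of HBE and 6464 in Smart-seq2 of HBE, against 9.07 in LIEA of A549, where KRT17 had 13 reads and TP63 had 90. Of the 10 leukocyte markers, 4, 8 and 5 were listed in the same order, with sums between 51.6 and 62.03 rpkM, most of it CD68, CD14 and LYZ. The defining leukocyte gene PTPRC was not listed in LIEA of HBE and had 3 reads in Smart-seq2 and 2 in A549, and CD3E was listed nowhere. The endothelial markers summed to between 0.61 and 12.3 rpkM, where CDH5 had 206 reads in LIEA of HBE and 360 in Smart-seq2 of HBE and was not listed in A549. The fibroblast markers summed to between 1.56 and 6.45 rpkM, with COL1A1 as nearly the whole sum and DCN listed nowhere. The part of these other cell types in the results was not tested.

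**Figure D1:**
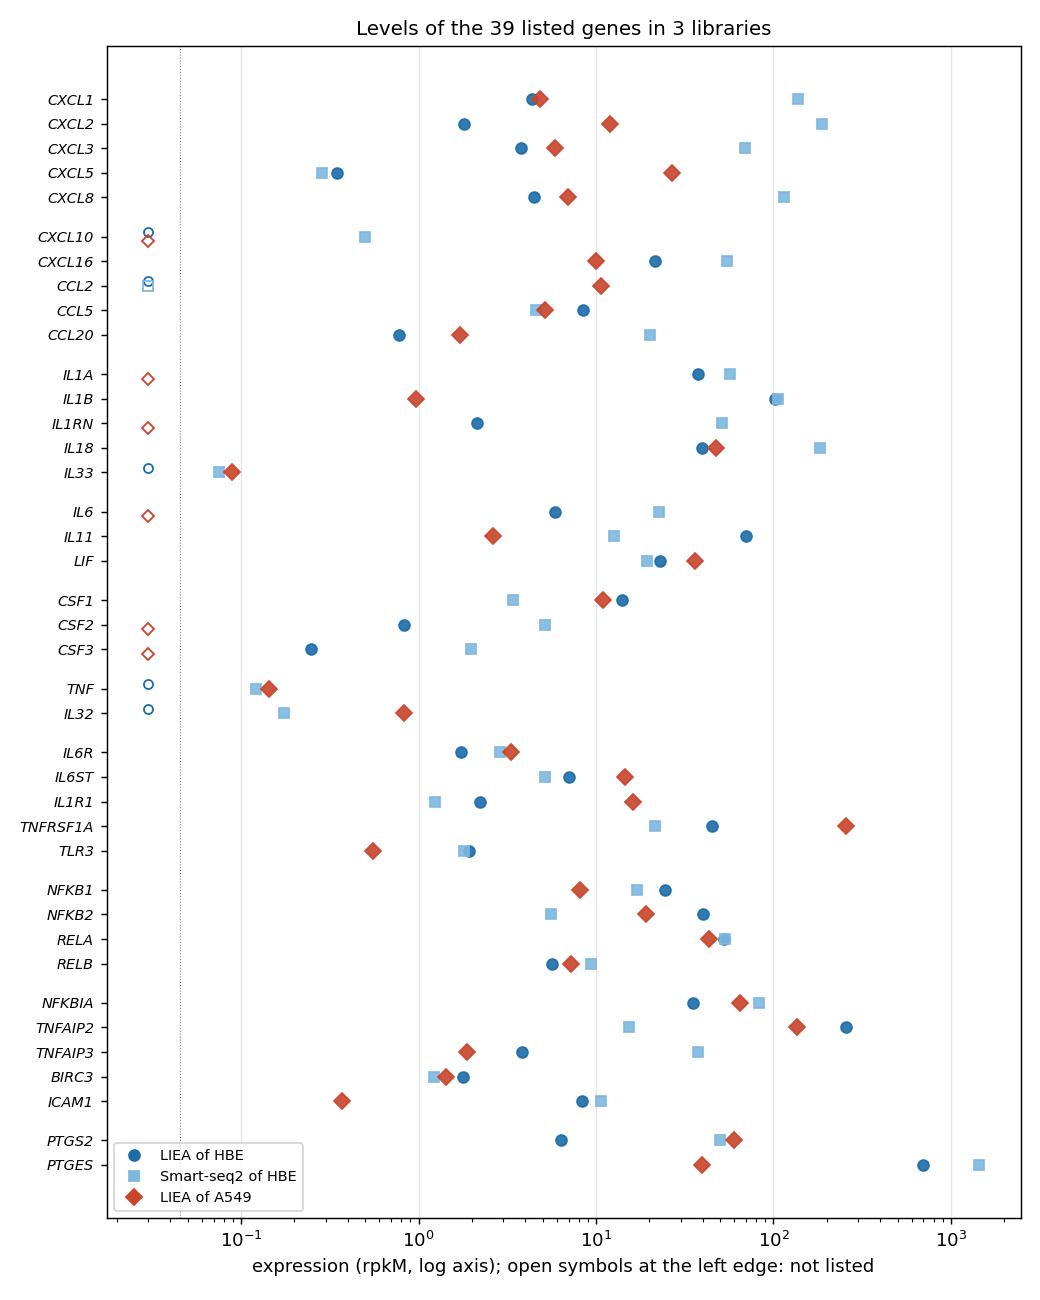
Expression of the 39 listed genes in rpkM on a log axis, 1 row per gene grouped by role, with a circle for LIEA of HBE, a square for Smart-seq2 of HBE and a diamond for LIEA of A549. Open symbols at the left edge mark genes not listed in that library. The squares of CXCL1, CXCL2, CXCL3 and CXCL8, between 68.7 and 188 rpkM, stand far to the right of both LIEA symbols, whereas IL1B has both HBE symbols together near 100 rpkM and A549 at 0.96.

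To compare the cell lines, genes with at least 20 reads summed over both LIEA libraries were taken, and a difference of at least 2-fold was counted. Of the 31 member genes that passed, 7 were at least 2-fold higher in A549 and 11 at least 2-fold lower, and 13 lay within 2-fold. Over all 12976 genes that passed, 18.6% were at least 2-fold higher and 20.4% at least 2-fold lower, against 22.6% and 35.5% of the members. The median difference was -0.28 on the log2 scale over the members and -0.14 over all genes. Relative to that median of all genes, 9 members were at least 2-fold higher and 8 lower, beside 20.9% and 16.9% of all genes. The choice of threshold for reads decided the sign of the members' median, which was 0.21 among the 24 members with at least 10 reads in both libraries. Of these 24, 5 were at least 2-fold higher and 6 lower, beside 13.4% and 17.3% of all genes. CXCL5, CCL2, IL1A, IL1B, IL6, ICAM1 and TLR3 had fewer than 10 reads in the cell line where they were low. They passed the limit of 20 reads through the other cell line. The members higher in A549 were CXCL5, CCL2, CXCL2, PTGS2, IL1R1, TNFRSF1A and IL6ST. The members lower in A549 were IL1A, IL1B, IL6, IL11, ICAM1, PTGES, NFKB1, NFKB2, TLR3, CXCL16 and TNFAIP3. The 8 listed members that did not pass were CCL20, CSF2, CSF3, CXCL10, IL1RN, IL32, IL33 and TNF.

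**Figure D2:**
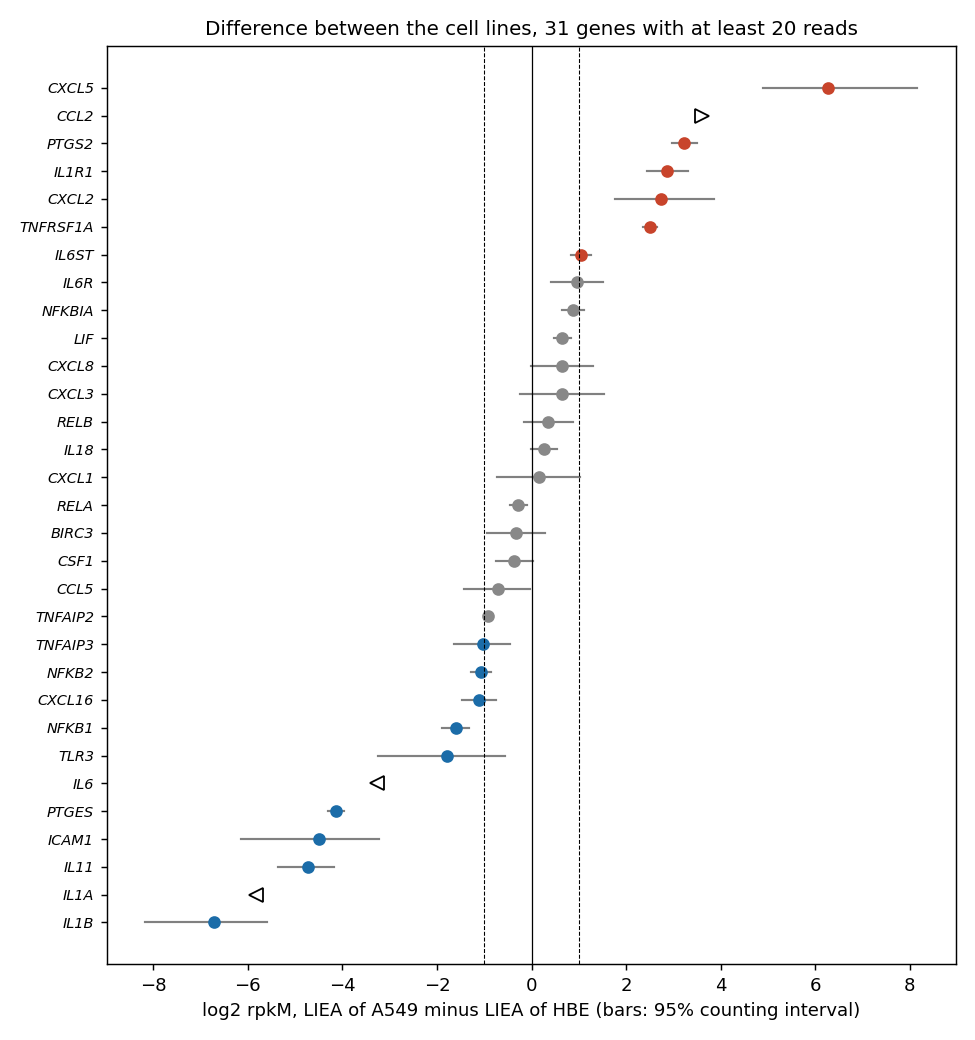
Difference in log2 rpkM, LIEA of A549 minus LIEA of HBE, for the 31 genes with at least 20 reads over both libraries. Points are coloured red from 2-fold higher and blue from 2-fold lower, bars are 95% counting intervals, dashed lines mark 2-fold, and open triangles mark bounds of CCL2, IL1A and IL6, which 1 library does not list. CXCL5 is at the top with 6.26 and IL1B at the bottom with -6.72.

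The Smart-seq2 library of HBE served as a check of how far the same genes moved with the method, on the study's account that the starting material was the same. Of the 33 members with at least 20 reads over both HBE libraries, 15 were at least 2-fold higher in Smart-seq2 and 5 at least 2-fold lower. Over all 12862 genes that passed, these shares were 21.6% and 28.1%, against 45.5% and 15.2% of the members. The median difference was 0.73 on the log2 scale over the members and -0.05 over all genes. CCL20, CSF2 and CSF3, which are among the 15, had 3, 3 and 2 reads in LIEA of HBE and passed through Smart-seq2. With at least 10 reads in both libraries, 12 of 30 members were higher and 5 lower, beside 19.4% and 27.8% of all genes. The level of each member in A549 is given below beside both HBE libraries. For a placement beside both HBE libraries, genes needed at least 20 reads summed over all 3 libraries. This gave a set of 33 members other than the 33 above. Of these, 5 were at least 2-fold above both HBE libraries in A549 (CCL2, CXCL5, IL1R1, IL6ST and TNFRSF1A), with 14.5% of all genes so placed. A further 11 of 33 were at least 2-fold below both (CXCL16, ICAM1, IL11, IL1A, IL1B, IL1RN, IL6, NFKB1, PTGES, TLR3 and TNFAIP3), with 13.3% of all genes so placed. IL1RN, with 19 reads over the LIEA libraries, passed here only through its 967 reads in Smart-seq2 of HBE. Its A549 level was taken at 3 reads, as were those of IL1A and IL6. Both HBE levels of CCL2 were taken at 3 reads too. CCL2 passed only through its 33 reads in A549, which could be 11. The HBE libraries are not replicates of each other, so this placement has no error of its own.

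**Figure D3:**
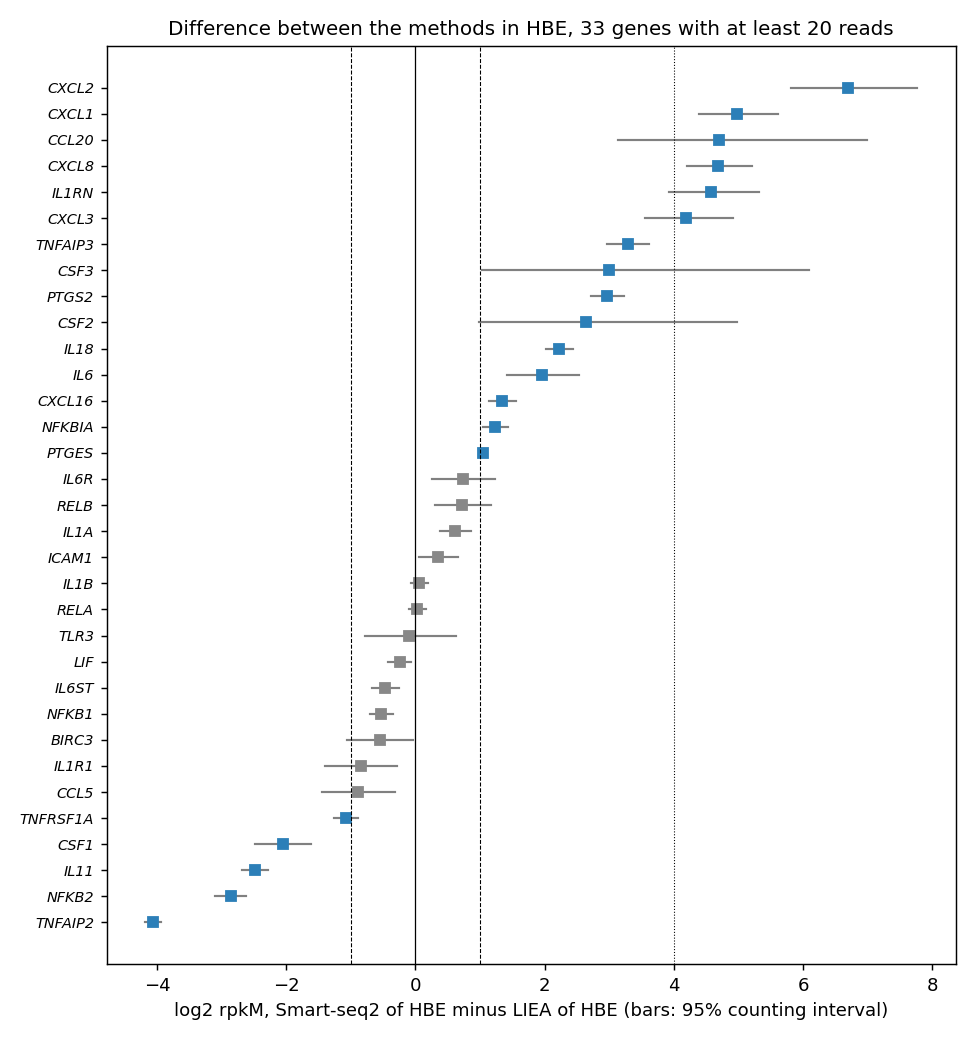
Difference in log2 rpkM, Smart-seq2 of HBE minus LIEA of HBE, for the 33 genes with at least 20 reads over both libraries, with 95% counting intervals as bars. Dashed lines mark 2-fold and the dotted line 16-fold. CXCL2, CXCL1, CCL20, CXCL8, IL1RN and CXCL3 lie beyond 16-fold, between 4.19 and 6.70, and TNFAIP2 is lowest with -4.06.

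The neutrophil chemokines CXCL1, CXCL2, CXCL3, CXCL5, CXCL6 and CXCL8 bind the receptor CXCR2 and draw neutrophils to the airway. Their genes stand close together on chromosome 4, from 74606236 at CXCL8 to 74964913 at CXCL2 (GENCODE annotation, GRCh37, the build hg19 of the labels). The promoters of the 5 listed genes are shown because these neighbours differed widely between the libraries, and in unlike patterns. Each is the 250 bases before the RefSeq start, matched exactly to GRCh37, at chr4:74606036-74606285 on the plus strand for CXCL8, chr4:74734860-74735109 on the plus strand for CXCL1, chr4:74864395-74864644 on the minus strand for CXCL5, chr4:74904407-74904656 on the minus strand for CXCL3 and chr4:74964913-74965162 on the minus strand for CXCL2. They are written 5′ to 3′ in the direction of the gene, and capitals mark matches of either of 2 forms of the NF-kB motif, a loose one (GGGA, any NNNN, then CC) and a strict one (GGAANTTCC), searched on both strands.
CXCL8: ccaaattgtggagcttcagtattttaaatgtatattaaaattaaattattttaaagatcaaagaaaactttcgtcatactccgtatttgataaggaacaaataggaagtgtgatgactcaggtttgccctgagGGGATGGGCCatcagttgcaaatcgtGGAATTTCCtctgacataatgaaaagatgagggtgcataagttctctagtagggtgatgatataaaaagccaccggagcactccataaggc
CXCL1: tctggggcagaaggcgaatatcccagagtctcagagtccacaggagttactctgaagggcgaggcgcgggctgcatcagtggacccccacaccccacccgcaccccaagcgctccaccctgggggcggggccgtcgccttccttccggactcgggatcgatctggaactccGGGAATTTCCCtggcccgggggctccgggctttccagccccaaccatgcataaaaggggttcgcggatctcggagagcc
CXCL5: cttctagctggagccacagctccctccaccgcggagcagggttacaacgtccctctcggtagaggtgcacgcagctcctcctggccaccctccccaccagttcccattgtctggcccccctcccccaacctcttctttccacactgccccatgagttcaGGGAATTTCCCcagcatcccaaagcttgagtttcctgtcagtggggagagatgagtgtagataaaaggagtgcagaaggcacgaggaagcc
CXCL3: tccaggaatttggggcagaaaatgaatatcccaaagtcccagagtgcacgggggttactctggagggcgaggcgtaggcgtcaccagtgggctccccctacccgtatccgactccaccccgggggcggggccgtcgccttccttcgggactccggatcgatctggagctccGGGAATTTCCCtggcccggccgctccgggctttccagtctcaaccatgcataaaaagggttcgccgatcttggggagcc
CXCL2: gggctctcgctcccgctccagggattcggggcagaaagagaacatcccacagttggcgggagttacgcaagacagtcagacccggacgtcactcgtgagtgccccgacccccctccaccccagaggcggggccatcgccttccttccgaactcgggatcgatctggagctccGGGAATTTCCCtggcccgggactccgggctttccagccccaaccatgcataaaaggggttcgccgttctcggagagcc
The same 11-base match, GGGAATTTCCC, stood in CXCL1, CXCL2, CXCL3 and CXCL5, beginning 79, 78, 79 and 91 bases before the start, and in it both forms overlap. In CXCL8 the forms matched separately, 117 and 91 bases before the start. GGAANTTCC was found in 10 of the 33 member promoters in the RefSeq table (CXCL1, CXCL2, CXCL3, CXCL5, CXCL6, CXCL8, CXCL10, NFKB1, NFKBIA and ICAM1) and in 0.831% of all 27305 promoters. The loose form was found in 20 of 33 member promoters and in 22.1% of all. These matches describe letters and not binding.

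CXCL5 had 4 reads (0.35 rpkM) in LIEA of HBE, 7 reads (0.29 rpkM) in Smart-seq2 of HBE and 277 reads (26.8 rpkM) in LIEA of A549. It was low in both HBE libraries and high in A549 alone. The difference by LIEA was 76.8-fold, 6.26 on the log2 scale with an interval from 4.89 to 8.15. At least 16-fold higher values in A549 were found for 3.94% of all genes. Its level in A549 was 93.8-fold that in Smart-seq2 of HBE.

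CXCL1, CXCL2, CXCL3 and CXCL8 followed another pattern. CXCL1 had 24 reads (4.37 rpkM) in LIEA of HBE, 24 reads (4.85 rpkM) in LIEA of A549 and as many as 1610 reads (137 rpkM) in Smart-seq2 of HBE. CXCL8, also called interleukin-8, had 35 reads (4.46 rpkM), 49 reads (6.92 rpkM) and 1924 reads (115 rpkM), respectively. CXCL3 had 20 reads (3.77 rpkM), 28 reads (5.85 rpkM) and 780 reads (68.7 rpkM). For these 3 genes the LIEA libraries of both cell lines were low and close, and Smart-seq2 of HBE alone was high. The LIEA difference between the cell lines was 0.15 for CXCL1 (interval -0.73 to 1.028), 0.63 for CXCL3 (-0.25 to 1.54) and 0.63 for CXCL8 (-0.02 to 1.30), so all 3 intervals include no difference. The reads of CXCL1 could be smaller by a whole factor shared with its length, at 12, 12 and 805, which would widen its interval to -1.13 to 1.43. The difference between the methods in HBE was 31.4-fold for CXCL1, 25.7-fold for CXCL8 and 18.2-fold for CXCL3. CXCL2 had 10 reads (1.80 rpkM) in LIEA of HBE, 60 reads (12.01 rpkM) in LIEA of A549 and 2224 reads (188 rpkM) in Smart-seq2 of HBE. Its direction between the cell lines therefore turned with the HBE library used. It was 6.65-fold higher in A549 than in LIEA of HBE (log2 difference 2.73, interval 1.76 to 3.87) and 15.6-fold lower than in Smart-seq2 of HBE.

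CXCL1, CXCL2 and CXCL3 are close relatives, so reads could be shared between them. Of the 42-base windows of a representative transcript (Ion Torrent reads longer than 42 nt were kept), 8.83% of CXCL1, 14.5% of CXCL2 and 6.77% of CXCL3 occurred exactly in another of the 3 genes. CXCL8 had no such window in any gene elsewhere, and 2.004% of the CXCL5 windows did. Only exact windows were counted, and the authors' mapping tolerates errors, so nearly identical stretches could share reads as well. How the mapping placed shared reads was not tested, and the values of CXCL1, CXCL2 and CXCL3 are uncertain to an extent that was not measured.

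The other chemokines draw mainly monocytes and lymphocytes. CCL2, which attracts monocytes, was listed in LIEA of A549 alone, with 33 reads (10.6 rpkM). Taken at 3 reads in LIEA of HBE, it was 12.2-fold higher in A549, with a lower interval limit of 3.23 on the log2 scale. Reads and length of this gene could both be smaller by the same whole factor. With 11 reads in place of 33 the ratio was 4.07-fold, with a lower limit of 1.48 on the log2 scale. CCL2 would then fall short of the 20 reads needed for the comparison. With the smallest whole reads, 6 of 30 members were at least 2-fold higher in A549, beside 18.2% of all genes. CCL20, which attracts cells with the receptor CCR6, had 3 reads (0.77 rpkM) in LIEA of HBE, 6 reads (1.72 rpkM) in LIEA of A549 and 167 reads (20.1 rpkM) in Smart-seq2 of HBE. It thus shared the pattern of CXCL1, with a method difference of 26.04-fold (log2 4.70, interval 3.13 to 6.995), while the LIEA libraries could not be told apart at this depth. CXCL16, a membrane-bound chemokine, had 232 reads (21.6 rpkM) in LIEA of HBE, 97 reads (10.03 rpkM) in LIEA of A549 and 1260 reads (55.0 rpkM) in Smart-seq2 of HBE. It was lowest in A549, by 2.16-fold against LIEA of HBE. Relative to the median of all genes the log2 difference of CXCL16, -1.11, was -0.96 and no longer 2-fold. CCL5 had 51 reads in LIEA of HBE, 59 in Smart-seq2 of HBE and 28 in LIEA of A549, and 21.3% of its 42-base windows occur in other genes. CXCL10, an interferon-induced chemokine, had 6 reads in Smart-seq2 of HBE and was listed in neither LIEA library.

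In the IL-1 family, both forms of interleukin-1 were low in A549. IL1B, the secreted form of interleukin-1, had 700 reads (101 rpkM) in LIEA of HBE, 1561 reads (106 rpkM) in Smart-seq2 of HBE and 6 reads (0.96 rpkM) in LIEA of A549. Both methods gave nearly one level in HBE, and A549 stood 105-fold below LIEA of HBE (log2 difference -6.72, interval -8.17 to -5.59). Values at least 16-fold lower in A549 were found for 2.58% of all genes. IL1A, the cell-associated form, had 189 reads (37.4 rpkM) in LIEA of HBE and 618 reads (57.2 rpkM) in Smart-seq2 of HBE and was not listed in A549. Taken at 3 reads in A549, it was 56.8-fold lower there, with an upper interval limit of -5.52 on the log2 scale. With the smallest whole reads, 63 in LIEA of HBE, it was 18.9-fold lower, with an upper limit of -3.90. IL1RN, the antagonist that blocks the IL-1 receptor, had 19 reads (2.15 rpkM) in LIEA of HBE, 967 reads (51.1 rpkM) in Smart-seq2 of HBE and none listed in A549. Its level in HBE turned with the method by 23.8-fold. IL18, a cytokine stored as a precursor in epithelial cells, had 208 reads (39.4 rpkM) in LIEA of HBE, 225 reads (47.2 rpkM) in LIEA of A549 and 2072 reads (183 rpkM) in Smart-seq2 of HBE. Unlike IL1A and IL1B it did not separate the cell lines by LIEA (log2 difference 0.26, interval -0.02 to 0.54). IL33, an alarmin, had at most 2 reads in a library.

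The cytokines IL6, IL11 and LIF signal through the shared receptor chain gp130. IL6 had 32 reads (5.87 rpkM) in LIEA of HBE, 265 reads (22.7 rpkM) in Smart-seq2 of HBE and was not listed in A549. Taken at 3 reads in A549, it was 9.62-fold lower by LIEA, with an upper interval limit of -2.88 on the log2 scale. IL11 had 769 reads (70.2 rpkM) in LIEA of HBE, 294 reads (12.6 rpkM) in Smart-seq2 of HBE and 26 reads (2.63 rpkM) in LIEA of A549. Both cytokines were lowest in A549, and the methods placed them in opposite directions in HBE. The LIEA difference of IL11 was -4.74 (interval -5.36 to -4.18), or 26.7-fold, and it was 4.77-fold below Smart-seq2 of HBE. LIF stood apart from both, with 419 reads (22.9 rpkM) in LIEA of HBE, 592 reads (35.9 rpkM) in LIEA of A549 and 756 reads (19.3 rpkM) in Smart-seq2 of HBE. Its A549 level was the highest of the 3 libraries, but by less than 2-fold.

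The colony stimulating factors direct growth of myeloid cells. CSF1, the macrophage factor, had 137 reads (14.05 rpkM) in LIEA of HBE, 96 reads (10.9 rpkM) in LIEA of A549 and 71 reads (3.41 rpkM) in Smart-seq2 of HBE. The cell lines were close, with an interval of the log2 difference from -0.76 to 0.02. CSF2 had 3 reads and CSF3 had 2 reads in LIEA of HBE, against 40 and 34 reads in Smart-seq2 of HBE, and neither was listed in A549. Both were above LIEA in Smart-seq2, by a log2 difference of 2.64 for CSF2 (interval 0.99 to 4.98) and 2.99 for CSF3 (1.028 to 6.09). TNF, the founding ligand of the pathway, had 0, 2 and 1 reads in LIEA of HBE, Smart-seq2 of HBE and LIEA of A549, and IL32 had 0, 2 and 4. These 2 genes were near or under the limit of 3 reads in all libraries, so no fold is given.

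Of the 5 receptors among the listed members, 3 were at least 2-fold higher in A549 and 1 lower, beside the 18.6% and 20.4% of all genes given above. Of a wider list of 35 receptor symbols, 23 passed, with 4 higher and 8 lower. TNFRSF1A, the main receptor for TNF, had 463 reads (45.2 rpkM) in LIEA of HBE, 469 reads (21.4 rpkM) in Smart-seq2 of HBE and 2363 reads (256 rpkM) in LIEA of A549. Among these 5 receptors it had the highest level in every library, and A549 was far above both HBE libraries. The LIEA difference was 5.66-fold (interval on the log2 scale 2.36 to 2.65). IL1R1, the signalling receptor for IL1A and IL1B, had 53 reads (2.23 rpkM), 63 reads (1.24 rpkM) and 347 reads (16.2 rpkM) in the same order. Thus the receptor was 7.26-fold higher by LIEA in the cell line where both ligands were low. IL6ST, which encodes gp130, had 297 reads (7.09 rpkM), 460 reads (5.13 rpkM) and 552 reads (14.6 rpkM), a LIEA difference of 1.04 that lies at the 2-fold line (interval 0.84 to 1.25). Rescaled so that each library sums to 1000000, it was 0.88. IL6R, the ligand-binding partner of gp130, had 47 reads (1.73 rpkM), 167 reads (2.87 rpkM) and 82 reads (3.34 rpkM), with A549 above LIEA of HBE by 1.93-fold. TLR3, a sensor of double-stranded RNA, was the exception, with 27 reads (1.93 rpkM) in LIEA of HBE, 54 reads (1.80 rpkM) in Smart-seq2 of HBE and 7 reads (0.55 rpkM) in LIEA of A549, a LIEA difference of -1.80 (interval -3.24 to -0.56).

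Of the NF-kB subunits, NFKB1 and NFKB2 were lower in A549 and RELA and RELB lay within 2-fold. RELA, the activating subunit of the classical dimer, had 621 reads (52.3 rpkM) in LIEA of HBE, 1357 reads (53.5 rpkM) in Smart-seq2 of HBE and 462 reads (43.1 rpkM) in LIEA of A549. Its 3 levels lay within 1.24-fold of each other. NFKB1, its usual partner, had 462 reads (24.6 rpkM), 686 reads (17.06 rpkM) and 137 reads (8.07 rpkM) in that order. NFKB1 was thus lowest in A549, 3.04-fold below LIEA of HBE (log2 -1.60, interval -1.89 to -1.33). NFKB2, of the alternative pathway, had 634 reads (40.3 rpkM) in LIEA of HBE, 187 reads (5.56 rpkM) in Smart-seq2 of HBE and 272 reads (19.2 rpkM) in LIEA of A549. A549 lay between the HBE libraries for NFKB2, so its direction between the cell lines turned with the HBE library used. The LIEA difference was -1.07, and relative to the median of all genes it was -0.93. A549 was not read by Smart-seq2, so the cell line difference by that method was not measured. RELB, the partner of NFKB2, had 59 reads (5.63 rpkM), 209 reads (9.33 rpkM) and 68 reads (7.20 rpkM) in LIEA of HBE, Smart-seq2 of HBE and LIEA of A549. Its LIEA interval, from -0.17 to 0.88, includes no difference.

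The inhibitors and targets did not move as 1 group. NFKBIA, which encodes the inhibitor IkB alpha, had 253 reads (35.05 rpkM) in LIEA of HBE, 1275 reads (82.6 rpkM) in Smart-seq2 of HBE and 419 reads (64.4 rpkM) in LIEA of A549. TNFAIP3, the ubiquitin-editing inhibitor A20, had 84 reads (3.85 rpkM), 1754 reads (37.6 rpkM) and 37 reads (1.88 rpkM) in that order. Both inhibitors were highest in Smart-seq2 of HBE, but by LIEA NFKBIA was higher in A549 (log2 0.88, interval 0.65 to 1.11) and TNFAIP3 lower (-1.03, interval -1.63 to -0.46). Relative to the median of all genes the difference of TNFAIP3 was -0.89 and no longer 2-fold. ICAM1, the adhesion molecule that holds leukocytes, had 125 reads (8.36 rpkM), 342 reads (10.7 rpkM) and 5 reads (0.37 rpkM). Its HBE levels were close by both methods and A549 was 22.5-fold below LIEA of HBE (log2 -4.49, interval -6.14 to -3.23). TNFAIP2 had 4930 reads (256 rpkM) in LIEA of HBE, 632 reads (15.4 rpkM) in Smart-seq2 of HBE and 2359 reads (136 rpkM) in LIEA of A549. TNFAIP2 was high in both LIEA libraries and 16.7-fold lower in Smart-seq2, the lowest of all members compared between the methods. BIRC3, an inhibitor of cell death, had 57, 83 and 41 reads in the same order and lay within 2-fold in all 3 libraries.

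By LIEA, the member prostaglandin enzymes went in opposite directions between the cell lines. PTGS2 (COX-2), the inducible enzyme of the first committed step, had 132 reads (6.38 rpkM) in LIEA of HBE, 2213 reads (50.03 rpkM) in Smart-seq2 of HBE and 1117 reads (59.8 rpkM) in LIEA of A549. A549 was 9.38-fold above LIEA of HBE but close to Smart-seq2 of HBE, with a log2 difference of 0.26. Cell line and method differ together in the second comparison, and within HBE Smart-seq2 was 7.84-fold above LIEA. As A549 was not read by Smart-seq2, the difference between the cell lines by that method was not measured. PTGES, the inducible synthase at the last step to prostaglandin E, had 5713 reads (694 rpkM) in LIEA of HBE, 25307 reads (1438 rpkM) in Smart-seq2 of HBE and 293 reads (39.5 rpkM) in LIEA of A549. It was the member with the highest level in both HBE libraries, at rank 73 of 16073 genes in LIEA and rank 20 of 16498 in Smart-seq2, and at rank 1803 of 16711 in A549. The LIEA difference was -4.14 (interval -4.31 to -3.97), or 17.6-fold. Of 8 other genes of prostaglandin metabolism that passed the read threshold, out of 15, 4 were at least 2-fold higher and 2 lower in A549. Over all genes these shares were 18.6% and 20.4%. PTGS1 (COX-1), the constitutive enzyme, had 208 reads (16.8 rpkM) in LIEA of HBE, 402 reads (15.2 rpkM) in Smart-seq2 of HBE and 3 reads (0.27 rpkM) in LIEA of A549, 62.5-fold lower (log2 -5.97, interval -8.26 to -4.40). HPGD, which breaks prostaglandins down, had 7 reads (0.50 rpkM), 36 reads (1.21 rpkM) and 265 reads (21.07 rpkM) in that order, a LIEA difference of 5.39 (interval 4.33 to 6.72).

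The genes around the members were described by lists of the same pathways. The counts of each list stand beside 18.6% of all genes at least 2-fold higher and 20.4% at least 2-fold lower in A549. Of 35 signalling adaptors and kinases, 34 passed the read threshold, 6 were at least 2-fold higher and 4 lower in A549, and their median log2 difference was -0.14. Among those with at least 100 reads over both LIEA libraries, the ends of the range were MAP3K8, a kinase above the NF-kB and MAP kinase pathways, with 24 reads in LIEA of HBE and 142 in LIEA of A549 (log2 2.71), and OTULIN, a linear ubiquitin protease, with 389 and 134 reads (log2 -1.39). Of 28 other NF-kB subunits, inhibitors and targets, 21 passed, with 4 higher, 3 lower and a median of -0.09. PLAU, the urokinase gene, had 20 reads in LIEA of HBE, 676 in Smart-seq2 of HBE and 183 in LIEA of A549, low in LIEA of HBE alone as PTGS2 was, and complement C3 had 2323, 1546 and 457 reads. In the wider receptor list, the ends of the range under the same limit of 100 reads were IL10RB (28 reads in LIEA of HBE and 156 in LIEA of A549) and ACKR3, a scavenger of chemokines (100 and 7 reads). Of 22 symbols of further cytokines, 7 passed, with 4 higher and 2 lower. IL24 had 118 reads in LIEA of HBE, 3169 in Smart-seq2 of HBE and was not listed in A549, and TNFSF15 had 60, 63 and 225 reads. Of 16 further chemokines, 1 passed. Of 11 genes of gp130 and STAT signalling, 10 passed, with 2 higher and 0 lower, and TYK2, a kinase bound to cytokine receptors, was lowest with 591 reads in LIEA of HBE and 332 in LIEA of A549 (log2 -0.68). The median of this list was 0.19.

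The difference between the methods was set beside the base composition of the transcripts, since GC content moved with it over all genes. Over the 12550 genes with a matched transcript, Spearman's rho of GC content with the log2 difference, Smart-seq2 minus LIEA, was -0.38, and over the 33 members it was -0.41. These describe genes of the same pair of libraries, and genes are not independent replicates. The values of members are set beside those of genes with like GC content. CXCL2 has a GC content of 44.7%, and the 2483 genes within 2.5 points of it had a median difference of 0.21 and a 90th percentile of 1.75, against 6.70 for CXCL2. CXCL8 has a GC content of 32.9%, and the genes of like GC had a median of 0.97 and a 90th percentile of 2.32, against 4.68. CCL5, at 54.04% GC, had -0.89 against a median of -0.44. IL1B and IL1A, at 46.2% and 38.7% GC, had differences of 0.06 and 0.61, beside medians of 0.06 and 0.62. TNFAIP2 and NFKB2, at 62.01% and 62.4% GC, had -4.06 and -2.86 against medians of -0.93 and -0.96. The part of GC content in the differences of the members was not tested. The pentamer ATTTA, the core of AU-rich elements known from unstable mRNAs, occurred 5 or more times in 19 of the 33 members and in 38.1% of all genes. Among the members at least 2-fold higher in Smart-seq2 the counts ran from 1 in IL1RN and PTGES to 24 in PTGS2. Among the other members they ran from 0 in TNFAIP2 to 28 in IL6ST. The part of this pentamer was not tested.

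**Figure D4:**
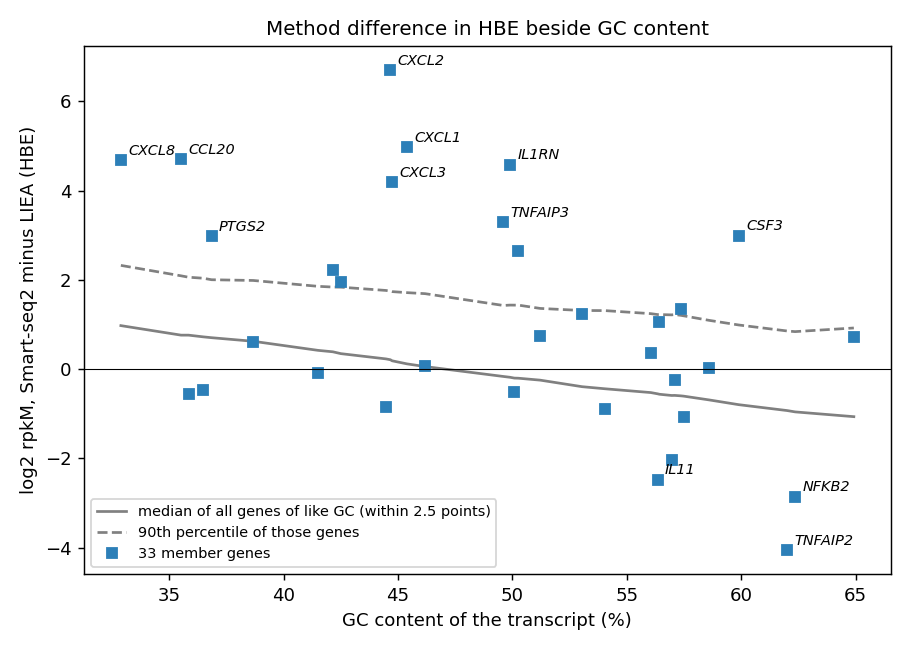
Difference in log2 rpkM, Smart-seq2 of HBE minus LIEA of HBE, against the GC content of the transcript in percent, for 33 member genes (squares). The solid line is the median and the dashed line the 90th percentile of all genes within 2.5 points of GC. CXCL2 (6.70), CXCL1 (4.97), CCL20, CXCL8, IL1RN and CXCL3 lie above the dashed line at GC contents between 32.9 and 49.9%. TNFAIP3, CSF3, PTGS2, CSF2, IL18, IL6 and CXCL16 lie above it too, at GC contents between 36.9 and 59.9%.

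Values at least 16-fold higher in Smart-seq2 than in LIEA of HBE were found for 46 genes, 0.358% of all genes that passed. Of these, 6 were members (CXCL1, CXCL2, CXCL3, CXCL8, CCL20 and IL1RN), or 18.2% of the 33 members that passed and 13.04% of the 46 genes. CCL20 passed with 3 reads in LIEA of HBE and 167 in Smart-seq2. As A549 was sequenced by LIEA alone, whether Smart-seq2 would place these genes higher in A549 too was not measured.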

How the data were processed

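Gene expression of 3 libraries was analysed, LIEA of HBE, Smart-seq2 of HBE and LIEA of A549, grouped by their labels. The authors kept Ion Torrent reads longer than 42 nt, used FANSe2 to map all libraries to RefSeq-RNA, pooled splice variants per gene and deposited log2 rpkM per gene without a pseudocount. Genes without reads are not listed. In each library 4 rows with duplicated date-like names were left out. The labels name the build hg19.

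Totals and reads were worked out from rpkM as reads over length and total. Each total is the highest whole number for which over 80% of 300 genes with the fewest reads gave whole lengths, and at the chosen totals at least 99.3% did. Reads and length share a whole factor, set to the most probable from 1 to 12 given GENCODE lengths, with 17734 of 18856 genes matched by symbol. All genes gave whole reads. In simulated data made from the recovered values, all 3 totals and the exact reads of 95.5% of 18311 genes were recovered. The contrasts were tested on simulated data with known folds.

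Genes with at least 20 reads over both libraries were compared as differences of log2 rpkM, and a library without the gene stood at 3 reads as a bound. Calls are at 2-fold, as 1 library per condition gives no test. GC content and ATTTA counts come from the coding transcript nearest in length. Promoters come from the RefSeq table (GRCh38.p14), matched to GRCh37. Every member was named, in full with at least 100 reads in a library and otherwise by its reads (reads and rpkM were added for some lower ones), and from each other list the largest rise and fall with at least 100 reads over both LIEA libraries, of which 1 is not reported here. The members and lists were chosen with earlier results of these data known. Alternatives changed the fold, the read threshold, the scale (log2(rpkM + 1)), the centring, the sum (1000000), the read factor and the HBE library. Scripts ran in Python 3.11.15 (matplotlib 3.10.9, pandas 2.3.3, scipy 1.17.1 and numpy 2.4.6).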

Additional observations from a re-analysis of the deposited data

How the results depend on the processing

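No paired analysis was possible because there was a single library of each kind, and leaving out replicates could not be done either. Of the summary values under an alternative, 4 moved and 39 stayed within 1.5 times the count, or within the 95% order-statistic interval of the median. The members at least 2-fold lower in A549 numbered 11. At 4-fold there were 6 (beside 7.42% of all genes), with at least 10 reads in both libraries 6 of 24 (17.3%), and with Smart-seq2 as the HBE library 19 of 35 (29.6%), where the median log2 difference of the members was -1.70 in place of -0.28. Fewer genes can pass the first 2 of these by construction. The cause of the third was not tested, since cell line and method differ together there. Rescaled to a sum of 1000000, 6 members were higher and 12 lower, beside 16.5% and 25.02% of all genes. Of the values of single members under another scale, centring or sum, 147 stayed within their counting interval, 18 moved out of it and 0 of the called ones changed sign. With 3 reads as the limit, CXCL10, IL32, IL33 and TNF were too low in every comparison for a fold.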

Other observations

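Of the 40 other genes at least 16-fold higher in Smart-seq2 than in LIEA of HBE, a few are given here, chosen after their values were seen. MTRNR2L3, a gene of the humanin-like family, of which 6 members were among the 40, had 7496 reads in Smart-seq2 of HBE, 3 in LIEA of HBE and 62 in LIEA of A549. SERPINB2, a protease inhibitor of the plasminogen system, had 5488 reads in Smart-seq2 and was listed in neither LIEA library. The keratin genes KRT6A and KRT6B had 8187 and 2274 reads in Smart-seq2 against 224 and 53 in LIEA of HBE. PI3, the elastase inhibitor elafin, had 120 reads against 2. EDN1, which encodes the peptide endothelin-1, had 1006 reads in Smart-seq2 of HBE against 9 in LIEA of HBE, and 599 in LIEA of A549. PPP1R15A, a stress-induced phosphatase subunit, had 4460, 114 and 881 reads in the same order, so both genes were low in LIEA of HBE alone. IL1RL1, the receptor for IL33, had 995 reads in Smart-seq2 of HBE, 22 in LIEA of HBE and was not listed in A549.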
